A study of Mus musculus with 10 samples.

Results

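The 5 dopamine receptor genes of the mouse, Drd1, Drd2, Drd3, Drd4 and Drd5, were followed through chromatin accessibility profiles of the ventral tegmental area, the midbrain region that holds dopamine neurons. Each gene was taken with 20 kb on either side, and the distinct peak intervals of every library that overlapped these windows were collected. The windows held 49 of the 202366 intervals of the series. Merged across libraries where they overlapped, these formed 22 of 74593 regions. The gene bounds in mm39 were entered by hand from general knowledge of that annotation, because the gene tables used here are of the older build GRCm38.p6, so distances from a gene start are approximate.

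Bulk ATAC-seq had been made on nuclei of adult mice older than postnatal day 60 that all carried ArcCreERT2 and the Sun1 nuclear tag. In this design the promoter of Arc, an immediate early gene, drives a recombinase that needs tamoxifen, and tagged nuclei were taken from the total with magnetic beads. The 10 libraries from 6 animals, each made from 1 animal, were 3 stressed activated (early-life stress), 2 standard-reared activated, 3 stressed non-activated and 2 standard-reared non-activated libraries. Libraries of 4 animals were present in both classes. The 2 standard-reared non-activated libraries were both from females, while each of the other groups held both sexes. No cell type was given for either class, and marker genes could not be located without an annotation of this build. In bulk nuclei, fewer cells with an open site and a less open site per cell cannot be told apart.

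Dopamine receptors are G protein-coupled receptors of 2 classes. Drd1 and Drd5 encode the D1-like receptors, which raise cyclic AMP through stimulatory G proteins. Drd2, Drd3 and Drd4 encode the D2-like receptors, which lower it through inhibitory G proteins. In the midbrain, the D2 receptor is known as the autoreceptor by which dopamine neurons restrain their own firing and release, whereas the D1 receptor is best known from the neurons of the striatum that dopamine axons reach.

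The stretches before the starts of the 4 receptor genes that had a called region at the start are shown. They were taken by gene symbol from the RefSeq promoter table of GRCm38.p6, whose coordinates are not those of the mm39 peaks, so how far a peak covers the printed bases was not measured. Each runs 5′ to 3′ on the coding strand over 250 bases that end before the start, and capitals mark matches to GGGCGG, the core of an Sp1 site, on either strand.
Drd1 (GRCm38.p6, chr13:54055659-54055908, minus strand): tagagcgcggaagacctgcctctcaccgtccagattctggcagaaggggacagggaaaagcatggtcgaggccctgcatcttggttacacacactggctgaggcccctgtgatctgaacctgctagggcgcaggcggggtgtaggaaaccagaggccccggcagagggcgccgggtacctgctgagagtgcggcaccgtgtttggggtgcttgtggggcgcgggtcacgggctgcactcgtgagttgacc
Drd5 (GRCm38.p6, chr5:38319259-38319508, plus strand): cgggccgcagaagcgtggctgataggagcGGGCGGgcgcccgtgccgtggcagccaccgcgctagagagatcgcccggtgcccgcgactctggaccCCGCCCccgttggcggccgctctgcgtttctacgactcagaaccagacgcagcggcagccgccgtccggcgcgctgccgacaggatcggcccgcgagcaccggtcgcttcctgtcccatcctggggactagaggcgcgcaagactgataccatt
Drd2 (GRCm38.p6, chr9:49340153-49340402, plus strand): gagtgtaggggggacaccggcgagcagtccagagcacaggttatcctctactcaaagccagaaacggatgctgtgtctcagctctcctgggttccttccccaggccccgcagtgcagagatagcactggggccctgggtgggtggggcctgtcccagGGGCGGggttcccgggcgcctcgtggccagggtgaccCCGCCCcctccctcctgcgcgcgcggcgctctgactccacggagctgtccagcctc
Drd4 (GRCm38.p6, chr7:141291768-141292017, plus strand): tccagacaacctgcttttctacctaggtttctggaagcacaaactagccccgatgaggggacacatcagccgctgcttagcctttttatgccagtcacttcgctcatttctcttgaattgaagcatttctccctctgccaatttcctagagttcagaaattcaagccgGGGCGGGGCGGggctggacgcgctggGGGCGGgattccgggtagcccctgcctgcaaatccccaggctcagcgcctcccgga

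The receptor promoters differed in base composition. Over 300 bases (250 before and 50 after the start) the GC content was 65.7% for the upstream start of Drd1, 70.3% for Drd5, 70.3% for Drd2 and 58.0% for Drd4, against 42.0% for Drd3 and a median of 52.7% over 32851 promoters of the table. CpG dinucleotides numbered 23, 38, 23, 15 and 2 in the same order, with a median of 7. The Sp1 core occurred in 35.7% of all promoters. It was found once in the Drd1 stretch, within the 50 bases after the start that are not printed, and 2, 2 and 3 times in those of Drd5, Drd2 and Drd4. That of Drd3 held 0. Searches on both strands for TATAAA (the TATA box, in 13.6% of all promoters), TGACGTCA (the cyclic AMP response element, in 1.79%), TGANTCA (AP-1, in 7.81%) and AAAGGTCA (NBRE, in 1.51%) found no match in any of the 5 receptors. A match or its absence describes the letters of these windows only.

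Peak lists were of unequal length and depth, which bears on every count given here. They held 15128 to 39783 intervals in activated and 7076 to 50786 in non-activated libraries. The 5 activated libraries and stressed non-activated replicate 1 had fragments of 134 to 161 bp and 5.30 to 10.9 fragments per kb of effective genome, as solved from the lists. The other 4 non-activated libraries had fragments of 210 to 250 bp and 0.309 to 1.45 fragments per kb. Depth by this measure and fragment length thus ran almost parallel to activation, and their part in the results was not tested. Labels name each library's animal but no batch.

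Intervals in the receptor windows came mostly from the longest lists. Standard-reared activated replicate 1 had 14 and stressed non-activated replicate 1 had 16, together 30 of the 49. Stressed activated replicates 1 to 3 had 4, 5 and 3, standard-reared activated replicate 2 had 4, and standard-reared non-activated replicate 2 had 3. Stressed non-activated replicates 2 and 3 and standard-reared non-activated replicate 1 had 0. Per Mb of window, the 7 libraries with any interval had 8.61 to 45.9, against 5.73 to 19.2 per Mb of chromosome in the same lists. The 3 libraries without one went the other way, with 0 per Mb of window against 4.76, 3.54 and 2.79 per Mb of chromosome. Intervals were 150 to 1010 bp wide, with a median of 289 bp. The authors' fold of pileup over background ran from 2.68 to 14.6. Among the 7076 strongest peaks of their library by q were 4 of the 49. The 2 libraries that held 30 of the 49 had lists of 39783 and 50786 intervals, so 7076 was a small part of them. Over all intervals, the same cut kept 7076 from each of the 10 lists, which together held 202366. The count of 4 was not tested against that share. Of the 22 regions, 8 were called in at least 2 libraries and 14 (63.6%) in a single one, beside 65.9% of all regions of the series. None was called in all 10 libraries.

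**Figure D1:**
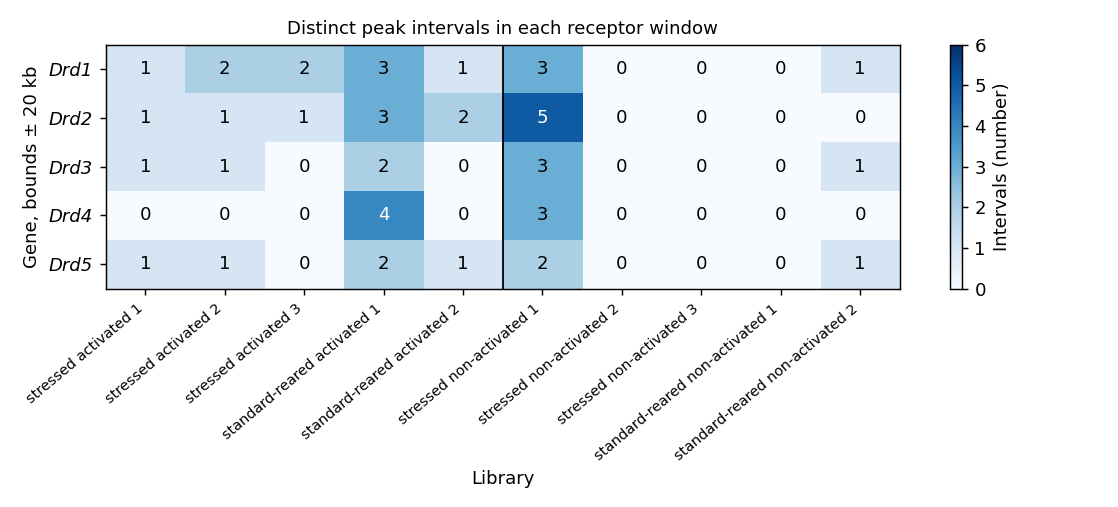
Number of distinct peak intervals in each receptor window (rows, gene bounds plus 20 kb each side) in each of the 10 libraries (columns, activated to the left of the line and non-activated to the right). Drd2 had at least 1 interval in all 5 activated libraries, and 3 non-activated libraries had 0 in every row.

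In the window of Drd1, the gene of the D1 receptor, the most widely called region lay not at the start but about 16 kb before it (chromosome 13, 54225712 to 54226397, mm39). All 5 activated libraries and 2 of 5 non-activated libraries called it. Its pileup was 10, 10 and 10 fragments in stressed activated replicates 1 to 3 and 33 and 13 in standard-reared activated replicates 1 and 2. Among non-activated libraries it was 54 in stressed replicate 1 and 9 in standard-reared replicate 2. The activated and non-activated values overlapped. Within its own list this peak stood at percentile 93.9 of fold in both standard-reared activated replicate 1 and stressed non-activated replicate 1. It stood at 51.4 in standard-reared activated replicate 2, 43.9 in standard-reared non-activated replicate 2 and 8.04 to 29.9 in the stressed activated libraries. These lists differ in length. In the older build Sfxn1 is the one other gene annotated within 20 kb of Drd1. Whether this region lies at the Sfxn1 start, and which gene it serves, was not examined. The names distal Drd1, distal Drd5 and distal Drd4 region used here give a place in the window only.

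The region over the Drd1 start (54208853 to 54209862) was called in 4 libraries. Its pileup was 7 fragments in each of stressed activated replicates 2 and 3, 16 in standard-reared activated replicate 1 and 51 in stressed non-activated replicate 1. The last was thus far above the activated ones, and its fold stood at percentile 80.2 of its list, against 14.2 to 77.1 in the activated lists. A further interval 9.63 kb before the start was called in standard-reared activated replicate 1, and one beyond the 3′ end in stressed non-activated replicate 1.

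Drd5, the gene of the D5 receptor, showed a similar layout, with one region over the start and one some 11.4 kb before it, and no other. The distal region (chromosome 5, 38465022 to 38465458) was called in 3 of 5 activated and 2 of 5 non-activated libraries. Its pileup was 11 and 13 fragments in stressed activated replicates 1 and 2 and 21 in standard-reared activated replicate 1. Among non-activated libraries it was 17 in stressed replicate 1 and 6 in standard-reared replicate 2, so the classes overlapped. Otop1 and the non-coding Gm34193 and Gm26560 are the other genes within 20 kb in the older build, and whether the distal region lies at one of their starts was not examined.

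The region over the Drd5 start (38476512 to 38477132) was called in both standard-reared activated libraries, with 16 and 10 fragments, and in no stressed activated library. It was also called in stressed non-activated replicate 1, with 14 fragments. Its percentiles of fold were 60.2 and 16.9 in the standard-reared activated lists and 42.2 in the non-activated one. Within activated nuclei it was the only one of the 8 shared receptor regions that separated the rearing groups. Of 25437 regions called in at least 2 libraries, 3.81% showed that pattern, being called in both standard-reared activated libraries and in none of the stressed ones.

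Drd2, which encodes the D2 receptor, had an open region over its start (chromosome 9, 49251407 to 49252287) in all 5 activated libraries and in 1 of 5 non-activated libraries. Its pileup was 15, 14 and 15 fragments in stressed activated replicates 1 to 3 and 28 and 10 in standard-reared activated replicates 1 and 2, against 32 in stressed non-activated replicate 1. The fold was 5.27, 6.01 and 6.90 in the stressed activated libraries and 7.21 and 4.96 in the standard-reared ones. These values placed the peak at percentiles 63.3, 64.1 and 78.5 in stressed and 87.8 and 35.2 in standard-reared activated lists, and in stressed non-activated replicate 1 a fold of 12 gave percentile 87.2. The start was thus called in every library of either class that was deeper in fragments per kb, and in none of the 4 shallower ones. By median pileup at the regions called in all 10 libraries, the order of depth differed. Standard-reared non-activated replicate 2, without a call, had 25 fragments there, against 24 and 23 in stressed activated replicates 1 and 3, which called the start.

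Called against not called, the Drd2 start gave a two-sided Fisher's exact p of 0.0476 for activated against non-activated libraries (5 of 5 against 1 of 5), with an adjusted p of 1 over all 25437 regions. This test takes the libraries as independent, although 4 animals gave a library to each class, and no paired test of calls was run. An unadjusted p under 0.05 with more calls in activated libraries was found for 361 regions (1.42%). The pattern of the Drd2 start, called in all 6 libraries with short fragments and in none of the other 4, was shared by 313 regions (1.23%). Presence in all 5 activated libraries was common, at 40.3% of regions. The other 7 shared receptor regions had unadjusted Fisher's exact p of 0.167 (the distal Drd1 region), 0.524 (the Drd1 start and the Drd3 region) or 1, and each had an adjusted p of 1.

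Inside the Drd2 gene, stressed non-activated replicate 1 alone had 3 more intervals, at 40.1, 45.5 and 48.8 kb from the start. Their pileups were 13, 34 and 20 fragments. The same library alone also had one 68.7 kb from the start, just past the entered 3′ end, with 30 fragments. In standard-reared activated replicate 1 an interval of 10 fragments lay 86.4 kb from the start. Ankk1 and the non-coding Gm46111 lie within 20 kb of Drd2 in the older build.

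Drd3, the gene of the D3 receptor, was the one receptor with no interval at its start in any library. Its shared region lay 47.9 kb into the gene (chromosome 16, 43622249 to 43622662), and whether it is exonic or intronic was not determined without an annotation of this build. It was called in 3 activated libraries, with 8 and 12 fragments in stressed replicates 1 and 2 and 9 in standard-reared replicate 1, and in stressed non-activated replicate 1 with 19. Percentiles of fold were 22.9, 61.5, 32.6 and 60.2 in the same order. Of the 4 other Drd3 regions, each of 1 library, the one with the highest fold was in stressed non-activated replicate 1, past the 3′ end, at 11 and percentile 83.8. The one in standard-reared non-activated replicate 2 had 3 fragments and percentile 0.465, near the bottom of that list.

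Drd4, which encodes the D4 receptor, had no interval in 8 of 10 libraries. Its start (chromosome 7, 140871859 to 140872280) was called in standard-reared activated replicate 1 with 19 fragments and in stressed non-activated replicate 1 with 25. A second shared region 12.8 kb before the start (140858850 to 140859164) had 15 and 8 fragments in the same libraries, and stood at percentiles 27.5 and 4.52. These are the libraries with the longest lists. Cdhr5, Sct and Deaf1 lie within 20 kb of Drd4 in the older build, and whether the second region lies at one of their starts was not examined.

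**Figure D2:**
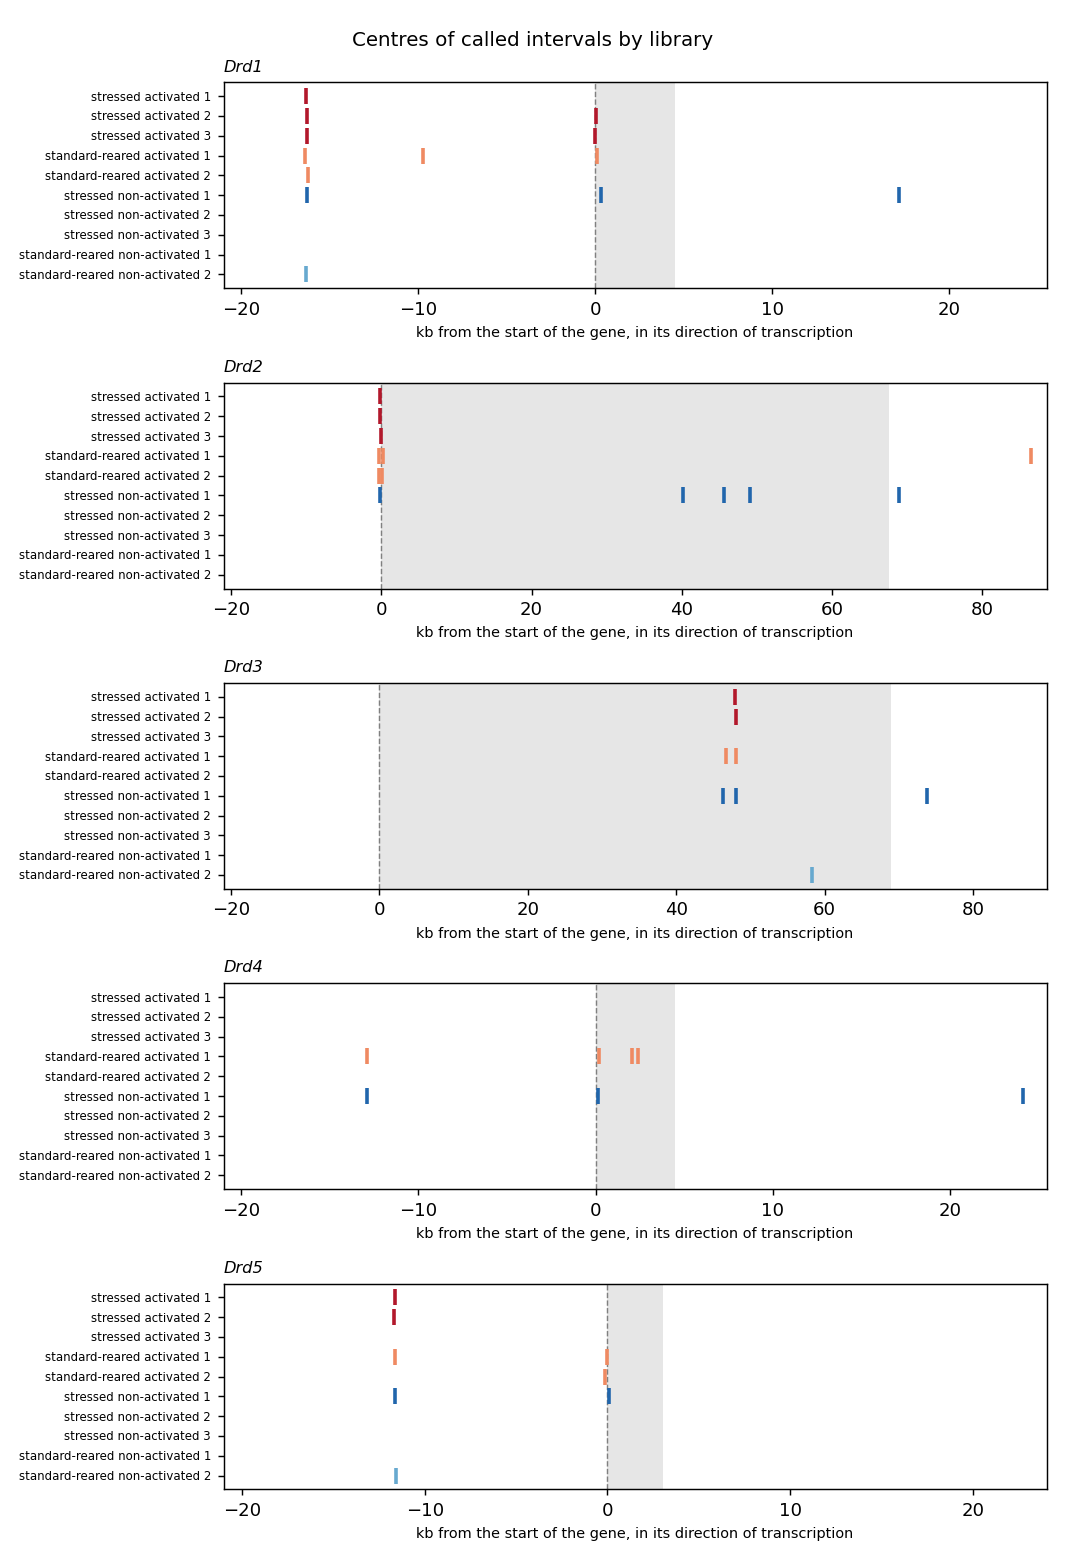
Centres of called intervals (bars, 1 row per library, coloured by group; bar width is not to scale) against distance in kb from the gene start along the direction of transcription, with the gene body in grey. The Drd1 region some 16 kb before the start and the Drd2 start were called in all 5 activated libraries, and Drd3 had no interval at its start.

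Ranks within a list describe that list only, since lists of different lengths rank the same signal differently. In standard-reared activated replicate 1 the order of the shared regions by percentile of fold was distal Drd1 (93.9), Drd2 start (87.8), distal Drd5 (82.7), Drd1 start (77.1), Drd5 start (60.2), Drd4 start (48.6), Drd3 (32.6) and distal Drd4 (27.5). In stressed non-activated replicate 1 the distal Drd1 region was again first and the distal Drd4 region again last, while the Drd4 start (67.7) stood above the Drd3 region (60.2), the distal Drd5 region (59.5) and the Drd5 start (42.2). In all 3 stressed activated libraries the Drd2 start ranked above the distal Drd1 region.

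**Figure D3:**
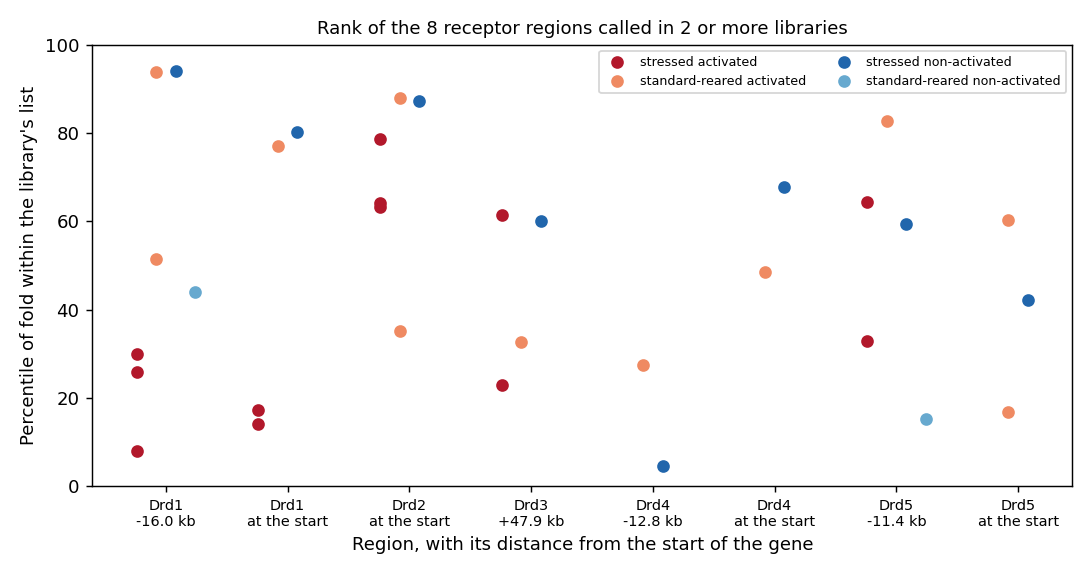
Percentile of the authors' fold within each library's own list (y axis, 100 is the highest) for the 8 receptor regions called in 2 or more libraries (x axis, with distance from the gene start), 1 point per library with a call, coloured by group. The Drd2 start lay between percentiles 35.2 and 87.8 in its 6 libraries, and the 3 stressed activated libraries had the distal Drd1 region at percentile 29.9 or lower.

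To set libraries on a common footing, pileups were also given as a share of the library's own median pileup at the 5296 regions called in all 10 libraries. At the Drd2 start this share was 62.5%, 43.8% and 65.2% in the stressed activated libraries, 68.3% and 37.0% in the standard-reared activated ones and 45.1% in stressed non-activated replicate 1. The distal Drd1 region reached 41.7%, 31.2% and 43.5% in the stressed and 80.5% and 48.1% in the standard-reared activated libraries, against 76.1% and 36.0% in the non-activated libraries with a call (stressed replicate 1 and standard-reared replicate 2). The Drd1 start reached 21.9% to 39.0% in the 3 activated libraries with a call and 71.8% in stressed non-activated replicate 1. The Drd5 start reached 39.0% and 37.0% in the standard-reared activated libraries and 19.7% in stressed non-activated replicate 1. Set against the library's background rate instead, the order of the classes turned at some regions. The Drd2 start was then 11.1 to 17.1 times the rate in activated libraries and 32.7 times in stressed non-activated replicate 1, above all 5 of them, whereas its share of the common regions lay inside their range. The Drd5 start was 9.76 and 12.4 times the rate in the standard-reared activated libraries and 14.3 times in stressed non-activated replicate 1, lower in activated libraries where the common-region share was higher. No test was made on these ratios, since libraries without a call have none.

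The Drd2 start was not called in the 4 libraries with fewer fragments per kb, and the pileup they could have shown was computed on both measures of depth. Scaled by background rate, the median activated signal would come to 2.33, 0.943, 4.32 and 3.02 fragments in stressed non-activated replicates 2 and 3 and standard-reared non-activated replicates 1 and 2. The lowest pileup called anywhere in those lists was 3, 2, 4 and 3, so these values lay below it in both stressed libraries and just above it in both standard-reared ones. Scaled by the common regions it would come to 10, 6.25, 7.5 and 15.6 fragments, above the lowest pileup called in all 4. In the first 3 of these libraries the distal Drd1 and Drd5 regions were not called either. There the common regions gave 6.96, 4.35 and 5.22 fragments for distal Drd1 and 7.33, 4.58 and 5.5 for distal Drd5, all above the lowest called. The background rate gave 1.86, 0.750 and 3.44 for distal Drd1, all below it. For distal Drd5 it gave 2.17, 0.876 and 4.01, below it except in the last. For the distal Drd1 region in standard-reared non-activated replicate 2, where 9 fragments were seen, the background rate gave 2.40 and the common regions 10.9. For the distal Drd5 region in that library, 6 were seen, against 2.80 and 11.5. In stressed non-activated replicate 1 the Drd2 start had 32 fragments, against 12.4 by the background rate and 44.4 by the common regions. The distal Drd1 region had 54 there, against 9.85 and 30.9, and the distal Drd5 region 17, against 11.5 and 32.5.

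**Figure D4:**
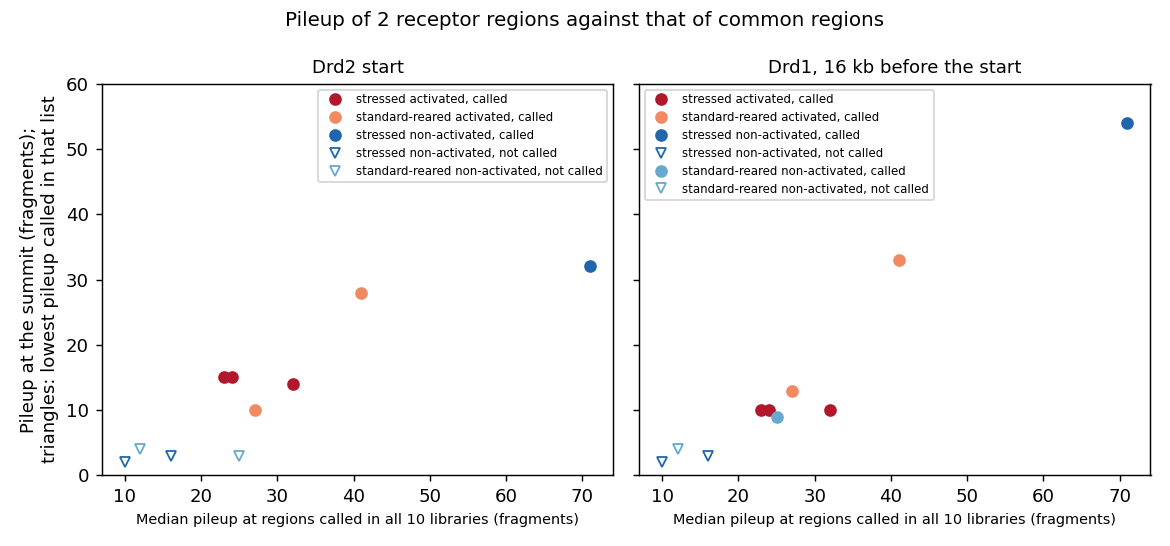
Pileup in fragments (y axis) at the Drd2 start and at the Drd1 region some 16 kb before the start, against the library's median pileup at regions called in all 10 libraries (x axis), 1 point per library. Open triangles are libraries without a call, drawn at the lowest pileup called in their list; the non-activated library at the far right, with a median of 71, had 32 fragments at the Drd2 start and 54 at the distal Drd1 region.

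Activated and non-activated nuclei of stressed mice, the contrast closest to the title of the series, did not separate at any receptor. The Drd1 window held 1, 2 and 2 intervals in stressed activated replicates 1 to 3, against 3, 0 and 0 in stressed non-activated replicates 1 to 3. For Drd2 the numbers were 1, 1 and 1 in activated against 5, 0 and 0 in non-activated libraries. The mean differences were 0.67 for Drd1, -0.67 for Drd2, -0.33 for Drd3, -1.0 for Drd4 and 0 for Drd5. Two-sided exact permutation gave p = 0.8 for Drd1 and 1 for the others (n = 3 each, smallest possible 0.1 where counts are not tied). For Drd4 only stressed non-activated replicate 1 was above 0. Every regrouping then gave the same size of difference, so that p was fixed and tests nothing. Replicate 1 of the non-activated libraries held all of their intervals, and without it the difference was 1.67 for Drd1, 1.00 for Drd2 and 0.67 for Drd3 and Drd5, while for Drd4 both groups had 0. Of the 8 shared regions, 0 were called in all 3 activated and no non-activated library, a pattern of 0.173% of all regions, and 0 showed the reverse (0.0708%).

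In standard-reared mice, every receptor had a higher mean number of intervals in activated than in non-activated libraries. The values were 3 and 1 against 0 and 1 for Drd1, 3 and 2 against 0 and 0 for Drd2, 2 and 0 against 0 and 1 for Drd3, 4 and 0 against 0 and 0 for Drd4, and 2 and 1 against 0 and 1 for Drd5. Only at Drd2 did the groups not overlap, with a difference of 2.5 (exact permutation, two-sided, p = 0.333, and no lower value is possible with 2 against 2). How many windows of other genes showed no overlap was not counted. Both activated lists were longer, at 39783 and 17283 intervals against 7076 and 14636. The differences of the other receptors were 0.50 to 2.00, with exact permutation p of 0.667 or 1. For Drd4 that p was fixed, since only standard-reared activated replicate 1 was above 0. Without standard-reared activated replicate 1, the difference of Drd4 was 0 and that of Drd3 was -0.50. The starts of Drd2 and Drd5 were called in both activated and neither non-activated library, 2 of the 8 shared regions, beside 10.9% of all regions. The reverse pattern was found in 0 of the 8 (0.169% of all regions). Both activated libraries were deeper, in fragments per kb, than both non-activated ones, so depth and activation cannot be told apart here.

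Pooled over rearing, the Drd1 window held 1.80 ± 0.84 intervals in activated and 0.80 ± 1.30 in non-activated libraries (SD, 5 libraries each; exact permutation, two-sided, p = 0.294). The Drd2 window held 1.60 ± 0.89 in activated and 1.00 ± 2.24 in non-activated libraries (exact permutation p = 0.73), although 5 of 5 activated and 1 of 5 non-activated libraries had an interval there. Means for activated and non-activated libraries were 0.80 and 0.80 for Drd3, 0.80 and 0.60 for Drd4 and 1.00 and 0.60 for Drd5, with exact permutation p of 0.683 to 1. None of these differences had an exact permutation p under 0.05. Without stressed non-activated replicate 1 the difference was 1.55 for Drd1 (exact permutation p = 0.0476) and 1.60 for Drd2 (exact permutation p = 0.00794), and all remaining activated libraries were then deeper, in fragments per kb, than all remaining non-activated ones. Per 10000 intervals of the list, the differences were 0.60 for Drd1 and 0.54 for Drd2 (exact permutation p = 0.0397 each). Other settings took the differences the other way or to 0. At a -log10 q of at least 5 both were -0.20, at equal list length that of Drd1 was 0, and paired by animal that of Drd2 was 0. The exact permutation p-values under 0.05 given here were the only 4 among 335 recomputed differences. No exact permutation p was adjusted, neither for those 335 nor for the 25 comparisons as reported. Called in all 5 activated and no non-activated library were 0 of the 8 shared receptor regions, beside 0.0275% of all regions. None of the 8 had more calls in non-activated libraries at an unadjusted Fisher's exact p under 0.05, beside 0.0354% of all regions. Across all regions, 0 of 25437 passed Fisher's exact test at an adjusted p under 0.05, and 370 had an unadjusted p under 0.05. Full separation gives the lowest p that 5 against 5 libraries allow, and 7 regions had it. With so few, no region could pass this adjustment, so the count of 0 does not show that the classes were alike.

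Rearing was compared within activated nuclei. The Drd2 window held 1, 1 and 1 intervals in stressed and 3 and 2 in standard-reared libraries, without overlap, a difference of -1.5 (exact permutation, two-sided, p = 0.1, and no lower value is possible with 3 against 2). How many windows of other genes showed no overlap was not counted here either. The extra intervals of the standard-reared libraries lay mostly at the start itself, where both lists split the peak in 2, and at equal list length the start was held by stressed activated replicate 3 and standard-reared activated replicate 1. Drd4 had 0 in all 3 stressed and 4 and 0 in standard-reared activated libraries (exact permutation p = 0.4). The other differences were -0.33 for Drd1, -0.33 for Drd3 and -0.83 for Drd5 (exact permutation p of 0.6 to 1). Without standard-reared activated replicate 1, the difference was 0 for Drd4 and 0.67 for both Drd1 and Drd3. No shared region was called in all 3 stressed activated and neither standard-reared library, a pattern of 0.366% of all regions.

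Within non-activated nuclei the comparison of rearing rested on 2 libraries. Stressed replicate 1 had 2 to 5 intervals in each window and stressed replicates 2 and 3 had 0, whereas standard-reared replicate 1 had 0 and replicate 2 had 1 each for Drd1, Drd3 and Drd5. Differences between stressed and standard-reared libraries were 0.17 to 1.67, each with an exact permutation p of 1 (n = 3 and 2). For Drd2 and Drd4 only stressed replicate 1 was above 0, so their p depended only on which group held that library. Without stressed replicate 1 the differences were 0 for Drd2 and Drd4 and -0.50 for Drd1, Drd3 and Drd5. No shared receptor region separated these groups in either direction, beside 0.358% and 0.0315% of all regions.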

How the data were processed

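Open chromatin was profiled by ATAC-seq in 10 libraries, and the files used are 1 peak list for each library, with no pooling of samples. Per the submitters' processing notes, MACS2 2.2.9.1, R 4.4.2, Bowtie2 2.4.5, fastp 0.23.4 and SAMtools 1.13 were used with mm39. The caller's settings, read shifting and filters on duplicate or mitochondrial reads are not given in the sources used, and each can change which peaks exist. The authors deposited for every peak a fold (linear ratio of pileup to the local background where the peak is highest). The p and q columns were deposited as -log10 values. The deposited score is 10 times the -log10 q.

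Intervals repeated for several summits were counted once, with the summit of highest fold, on chromosomes 1 to 19, X and Y. A peak's percentile is the percent of its list with the same or a lower fold. Pileup and background were solved from fold and p with a pseudocount of 1, and 100% of peaks gave a whole pileup within a misfit of 2e-05. The lowest background was taken as the genome rate and the narrowest peak as the fragment length. These are counting values without replicates, so their precision is that of the fragments counted. Intervals overlapping by 1 bp were merged. Gene bounds were entered by hand, agree in length with RefSeq GRCm38.p6 within 4.25% (lowest difference 0.0663%), and no coordinate was converted between builds. All 5 symbols matched the promoter table.

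Numbers of intervals were tested by two-sided exact permutation in 5 comparisons of 5 receptors, and calls per region by Fisher's exact test with Benjamini-Hochberg adjustment over all 25437 regions called in at least 2 libraries. Group and replicate came from the labels. In stressed mice a replicate number marks 1 animal, by the library names; deviations of same-animal libraries from their group means correlated at -0.0015, -0.033 and 0.046. Alternatives were equal list length, numbers per 10000 intervals, -log10 q of at least 5, 5 kb flanks, every summit entry, 50% coverage of a region, each library left out and pairing by animal. Flanks of 17 and 23 kb were added after the data were seen. All 5 receptors, all receptor regions of 2 or more libraries and the regions at gene starts were named by rule; single-library regions were added after their values were seen. The members and lists were chosen with earlier results of these data known. Planned lists of dopamine synthesis, signalling and cell type marker genes were not run, as they need an annotation of mm39. The solver and tests were checked on simulated data. SciPy 1.17.1, NumPy 2.4.6, Matplotlib 3.10.9 and pandas 2.3.3 under Python 3.11.15 were used.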

Additional observations from a re-analysis of the deposited data

Results flagged for a closer look

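Each receptor's number of intervals was searched for a library far from the rest within the 5 activated and the 5 non-activated libraries. This made 10 groups, and in values without ties the rule marks about 1 in 20 by chance. Where 4 libraries had 0, any other count was marked. That rate therefore does not hold for these counts, and the marks below follow from the zeros. At Drd2, stressed non-activated replicate 1 had 5 intervals and the other 4 non-activated libraries had 0. At Drd4, the same library had 3 and the others 0. Also at Drd4, standard-reared activated replicate 1 had 4 intervals and the other 4 activated libraries had 0. Both libraries had the longest lists of their class, 50786 and 39783 intervals, and the part of list length in these counts was not tested.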

How the results depend on the processing

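No difference in number of intervals passed the threshold as reported. Of 335 recomputed differences, 246 had the same sign, 28 the other sign, and 29 were 0 where the reported one was not. A further 25 were not 0 where the reported one was 0, and 7 were 0 in both. The 4 that passed the threshold kept their sign. At equal list length, the pooled differences of Drd1, Drd4 and Drd5 were 0. In stressed mice the activated minus non-activated difference of Drd1 was -0.33 at equal list length, -1.0 at a -log10 q of at least 5 and -0.33 with every summit; Drd2 gave 0.33 at equal length and 0.26 per 10000 intervals, and Drd3 0.18 per 10000. In standard-reared mice Drd3 gave -0.090 per 10000. Pooled, Drd1 and Drd2 each gave -0.20 at a -log10 q of at least 5, and 0.60 and 0.54 per 10000. For stressed minus standard-reared activated libraries, Drd1 gave 0.32 per 10000 and 0.17 with 5 kb flanks, Drd2 0.50 at the q limit, and Drd3 0.12 per 10000 and 0.33 at the q limit. In non-activated nuclei Drd1 and Drd3 each gave -0.14 and Drd5 -0.21 per 10000. The causes were not tested.

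With single libraries left out, differences ranged as follows. In stressed mice Drd2 ranged from -1.5 to 1.0 and Drd3 from -0.83 to 0.67, and in standard-reared mice Drd3 from -0.50 to 1.5 and Drd4 from 0 to 4.0. Pooled, Drd1 ranged from 0.70 to 1.55, Drd2 from 0.25 to 1.60 and Drd4 from -0.60 to 0.80. For rearing in activated nuclei Drd1 and Drd3 each ranged from -1.33 to 0.67 and Drd4 from -4.0 to 0. For rearing in non-activated nuclei Drd1 and Drd3 each ranged from -0.50 to 1.0, Drd5 from -0.50 to 0.67 and Drd2 from 0 to 2.5.

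Pairing by animal changed no call. The pooled difference of Drd2 became 0 and the sign of Drd4 in the pooled comparison turned to -0.75 (exact sign-flip permutation p = 1 over 4 animals, smallest possible 0.125 where no animal has a difference of 0). At Drd4 only the animal of stressed non-activated replicate 1 differed, so that p was fixed. At equal list length, 0 shared receptor regions separated activated from non-activated standard-reared libraries, or standard-reared from stressed activated ones, instead of 2 and 1. No region passed the adjusted Fisher's exact test under any alternative run, though with so few libraries that test had little room to pass. Flanks of 17 or 23 kb changed no call, while the pooled difference of Drd3, 0 as reported, was -0.20 with 23 kb. Absence from a list of low depth, where the lowest pileup called was 2 to 4, is not absence of open chromatin.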
